A study of Mus musculus with 8 samples.

Results

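The proteasome genes described here are the 46 of the 12367 genes in the expression table whose symbol begins with Psm and a letter from a to g, leaving out the immunoproteasome subunits Psmb8, Psmb9 and Psmb10 and symbols that end in -ps. They hold 8 alpha-type and 7 beta-type subunits of the 20S core, 6 ATPases and 11 non-ATPase subunits of the 19S cap, 3 chaperones that assemble the cap, 5 activators, the inhibitor Psmf1 and 4 chaperones that assemble the core. The last of the 46, Psmc3ip, matched by its letters only. It encodes a partner of the recombinases of meiosis and is no proteasome component, so that counts are also given for the 45 others. All 46 passed the filter on low values (a value of 1 or more in 4 or more libraries).

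The RNA came from alveolar macrophages, the macrophages of the lung's air spaces, of untreated mice at 3 weeks of age, sorted by flow cytometry as CD45+ F4/80+ CD11c+ cells. CD11c-Cre Tfam-fl/fl mice (KO) carried 2 floxed alleles of Tfam and a Cre recombinase driven by CD11c, and Tfam-fl/fl mice (WT) carried the same floxed alleles without the Cre. Tfam encodes the protein that coats the DNA of mitochondria and starts its transcription. There was no group with the Cre and unfloxed Tfam, and what the Cre does by itself cannot be told apart from the loss of Tfam, and CD11c marks other myeloid cells of the lung as well. Each genotype had 4 libraries, each from a pool of cells of 3 to 5 male and/or female mice.

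Tfam itself, on chromosome 10 at 71225464 to 71238280 of GRCm38, stood at 4.52, 5.08, 4.29 and 3.52 in KO1 to KO4, against 26.1, 35.2, 30.3 and 29.7 in WT1 to WT4. The log2 difference between genotypes was -2.55 (SE 0.117; adjusted p = 1.02e-06 by limma), and the exact two-sided permutation p was 0.0286, the smallest that 4 against 4 libraries can give. Values are the authors' normalised reads on a per-million scale, and the spacing between low values gives 20243772 to 30263201 reads in listed genes in KO libraries and 24776683 to 29161957 in WT libraries. The lowest number of reads of a proteasome gene in a library was 31, and 35 of the 46 had at least 1000 in every library. All 12 alveolar macrophage markers had rows, and their summed value was 35248 to 40647 in KO and 34148 to 36653 in WT. Most of that sum was Chil3, at 24490 to 30293 in KO and 22376 to 25450 in WT, and the 12 markers did not move together. By limma, 3 rose (Itgax, Car4 and Plet1, with log2 fold changes of 0.90, 0.89 and 0.29), 4 fell (Ear1, Ear2, Siglecf and Krt79, with -2.81, -2.26, -1.36 and -1.08) and 5 did not pass. Of 50 markers of other cell types 32 had rows, with sums of 301 to 506 in KO and 213 to 461 in WT. The interstitial macrophage and monocyte markers, 7 of 9 with rows, summed to 74.3 to 212 in KO and 38.8 to 64.9 in WT, and the neutrophil markers, 4 of 5 with rows and Ly6g without, to 74.7 to 114 in KO and 22.9 to 58.1 in WT. Most of that neutrophil sum in KO was Cxcr2, at 62.6 to 98.6 in KO and 9.05 to 16.4 in WT, while S100a9 stood at 2.06 to 6.99 in KO and 4.91 to 22.2 in WT. The part of such cells in the values below was not tested. In a principal component analysis the second component, with 12.8% of the variance, set KO4 and WT4 apart at -14.1 and -25.6, and the calls that change without both of them are named.

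The 26S proteasome degrades proteins that carry chains of ubiquitin. Its barrel-shaped 20S core is a stack of rings of alpha subunits, which gate the entry, and of beta subunits, of which Psmb5, Psmb6 and Psmb7 cut the substrate. The 19S cap binds ubiquitin, removes it and unfolds the substrate with a ring of ATPases. When proteasome activity falls, the transcription factor made from Nfe2l1 is known to raise the transcription of proteasome genes together, through antioxidant response elements that it binds with small Maf proteins. In macrophages the proteasome also makes peptides for class I presentation. For this, interferon exchanges Psmb6 for Psmb9, Psmb7 for Psmb10 and Psmb5 for Psmb8.

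Most proteasome genes differed little between KO and WT cells. Of the 46, 7 rose in KO (Psmd8, Psmb6, Psmb5, Psmg4, Psmd4, Psmd2 and Psme2), 6 fell (Psme2b, Psmc3ip, Psmd14, Psma4, Psmd6 and Psma7) and 33 did not pass at a limma adjusted p under 0.05. This is 28.3% of the members, where 38.7% of all 12163 genes tested passed, 18.7% higher and 20.0% lower. Without Psmc3ip the counts were 7 higher and 5 lower. KO and WT libraries did not overlap for 14 of the 46 (30.4%), against 37.7% of all genes tested. The median log2 fold change was -0.02 over the members and -0.01 over all genes, and 39 of the 46 (84.8%) lay within 0.25 of 0, against 57.6% of all genes. The median SE was 0.0631 for the members and 0.0945 for all genes. In bulk RNA, fewer cells of a type and less RNA per cell cannot be told apart.

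**Figure D1:**
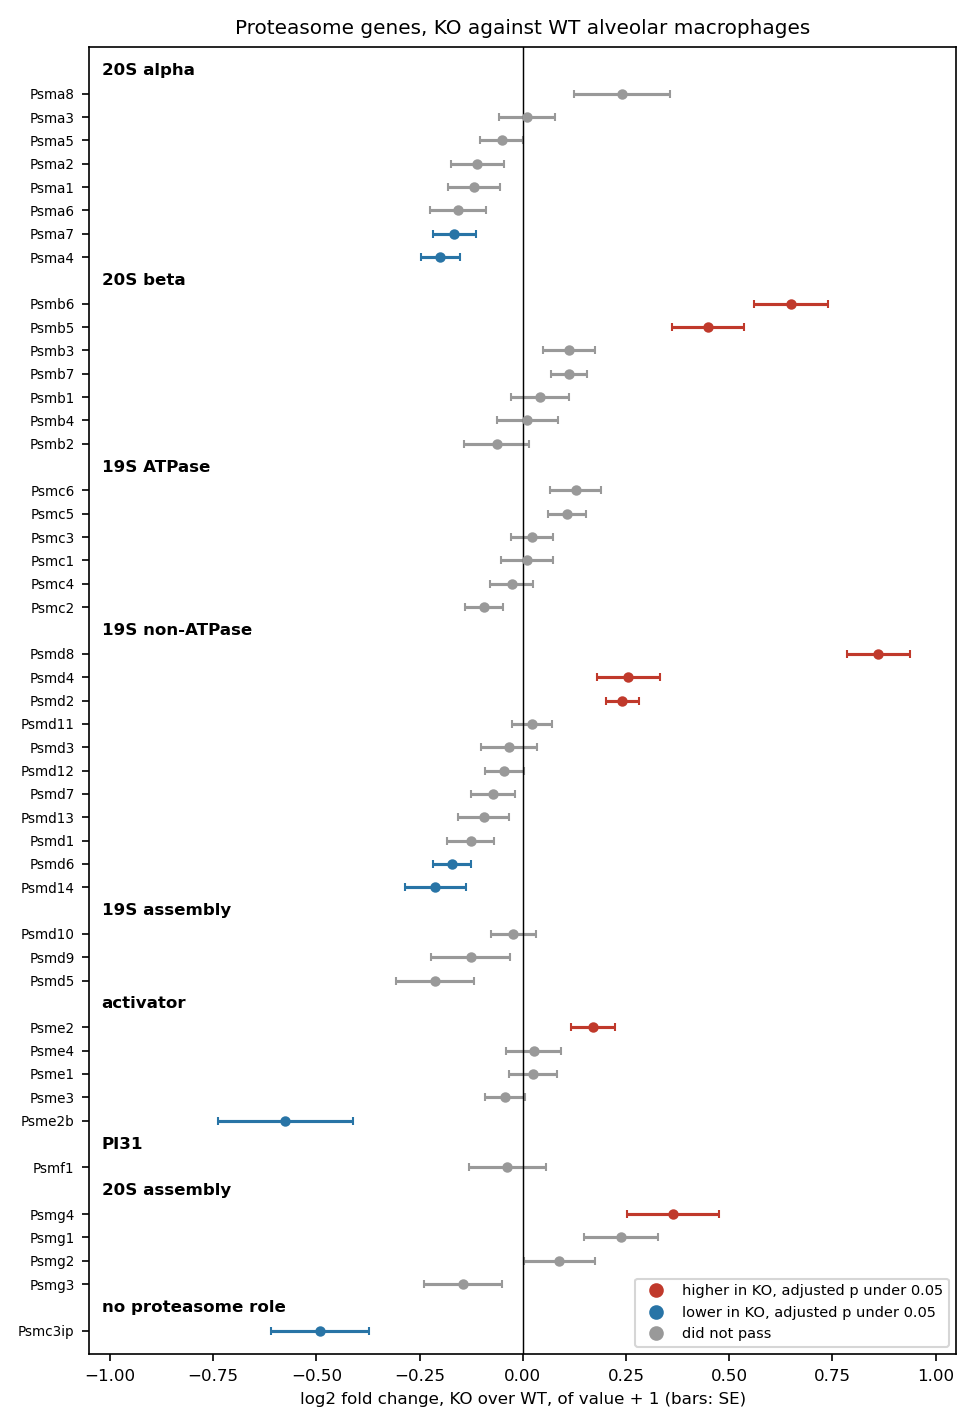
Log2 fold change, KO over WT, of the value plus 1 for each of the 46 genes, grouped by role, with bars for the SE of the limma fit over 4 libraries per group. Red points passed with higher KO values, blue points passed with lower ones and grey points did not pass. Psmd8 at 0.86 and Psmb6 at 0.65 lie farthest to the right, and most grey points lie near 0.

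The changes were small enough for the scaling of the libraries to matter. The counts of 7 higher and 6 lower hold for the values as deposited. Centring each library on its median gave 10 higher and 5 lower, so that 66.7% of calls were higher instead of 53.8%. Over all genes it gave 2475 higher and 2175 lower, 53.2% of calls higher instead of 48.4%. Putting every library on a plain per-million scale over the listed genes, an alternative chosen after seeing the data, moved the median of all genes to -0.09 and gave 4 higher and 14 lower, 22.2% of calls higher. All genes moved the same way, with 1708 higher and 3481 lower, 32.9% of calls higher. Without WT4, which was the lowest WT library for 35 of the 46 genes (36.4% of all genes), 5 were higher and 10 lower. Over all genes, leaving out WT4 lowered both counts, from 2279 higher and 2429 lower. Without both number 4 libraries 6 of the 46 were higher and 10 lower, with 2349 higher and 2531 lower over the 11893 genes then tested. Leaving out that pair added Psma1 (adjusted p = 0.0182 by limma), Psma2 (0.0496), Psma6 (0.024) and Psmd1 (0.0327) to the lower genes and took Psmg4 (0.0832) from the higher ones. Psmd8, Psmb6, Psmb5 and Psmd2 (higher) and Psma4 (lower) passed in the same direction in each of these fits and in every other alternative at an adjusted p under 0.05. Psmc3ip did so wherever it was tested.

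The largest change within the core was in cutting subunits. Psmb6, the caspase-like subunit, stood at 120, 105, 118 and 97.7 in KO1 to KO4, against 75.5, 70.8, 73.5 and 60.1 in WT1 to WT4. Every KO library lay above every WT library. The gene lies on chromosome 11 at 70525367 to 70527858 of GRCm38, on the plus strand. Psmb6 averaged 110 ± 10.7 in KO and 70.0 ± 6.86 in WT (SD, n = 4 each), a log2 fold change of 0.65 (SE 0.0898; adjusted p = 0.000371 by limma). Psmb5, the chymotrypsin-like subunit and the main target of bortezomib, stood at 106, 101, 103 and 80.2 in KO1 to KO4, against 71.4, 74.6, 70.5 and 67.3 in WT1 to WT4. Psmb5 lies on chromosome 14 at 54614119 to 54618022 of GRCm38, on the minus strand. KO4 was the lowest KO library for both genes, and still lay above the WT libraries. Psmb5 averaged 97.6 ± 11.8 in KO and 70.9 ± 3.03 in WT (SD, n = 4 each), a log2 fold change of 0.45 (SE 0.0871; adjusted p = 0.00284 by limma). A processed pseudogene outside the table, Gm3375, matches 88.5% of the Psmb5 transcript at 98.9% identity, so reads of the pair could have been shared.

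Psmb7, the trypsin-like subunit, moved less than the other two. It stood at 121, 117, 120 and 116 in KO1 to KO4, against 112, 111, 110 and 107 in WT1 to WT4. The groups did not overlap, but the log2 fold change of 0.11 (SE 0.0425) had a limma adjusted p of 0.0634, which fell to 0.0328 with median centring and was 0.721 on the plain per-million scale. On the opposite strand 405 exon bases of Psmb7 overlap Nek6, which rose in KO (log2 fold change 0.96, limma adjusted p = 3.29e-05). Per the labels' protocols the library kit keeps strand, but the strand setting of the counting is not given in the sources used here. Reads of Nek6 in the Psmb7 value were not tested.

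The start regions of these subunits are shown because the antioxidant response element is the known site of the Nfe2l1 factor in proteasome genes. RefSeq windows (GRCm38.p6, 250 bases before the start of transcription to 50 after it) were at hand for 38 of the 46 genes. The core letters TGACNNNGC, on either strand, occurred in 6 of their 41 windows (14.6%) and in 12.4% of all 32851 windows. The 6 genes were Psmb6, Psmb5, Psmc6, Psmd9, Psmd12 and Psme4. Psmb6 and Psmb5 rose in KO and the other 4 did not pass the test; of the 6, the 4 with the lowest p are shown. Psmd8, which rose most, has no match in its window. The motif is in capitals in the windows of Psmb6 (chr11:70525107-70525406, plus strand, motif from -9) and Psmb5 (chr14:54617946-54618245, minus strand, motif from -47), and in 49-base stretches of Psmc6 (chr14:45329577-45329625, plus strand, motif on the reverse strand from -227) and Psmd9 (chr5:123228139-123228187, plus strand, motif from -31).
Psmb6: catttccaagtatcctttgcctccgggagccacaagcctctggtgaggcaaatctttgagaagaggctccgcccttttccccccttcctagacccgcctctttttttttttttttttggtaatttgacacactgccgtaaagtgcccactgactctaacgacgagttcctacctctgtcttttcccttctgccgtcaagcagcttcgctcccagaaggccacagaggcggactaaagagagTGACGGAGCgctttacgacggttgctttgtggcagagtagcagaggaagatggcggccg
Psmb5: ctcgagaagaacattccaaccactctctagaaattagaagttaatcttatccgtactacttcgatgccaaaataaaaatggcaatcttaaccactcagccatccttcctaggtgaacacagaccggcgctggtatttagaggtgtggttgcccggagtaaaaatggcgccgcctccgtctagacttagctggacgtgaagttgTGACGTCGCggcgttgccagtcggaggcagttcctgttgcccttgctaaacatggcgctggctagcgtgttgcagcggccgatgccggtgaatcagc
Psmc6: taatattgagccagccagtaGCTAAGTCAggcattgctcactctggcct
Psmd9: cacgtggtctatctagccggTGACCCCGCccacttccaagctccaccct
The matches lie at different distances from the start, and a match of these letters is a description, not a binding site. The NF-Y box CCAAT, on either strand, was present in 13 of the 41 windows (31.7%) and in 37.4% of all windows. TGATGNAA, the core letters of the element bound by Atf4, was present in 1 window (Psmd13, 2.44%) and in 3.97% of all windows.

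The alpha subunits form the outer rings of the core. Of the 8 alpha-type genes 0 rose and 2 fell (25.0%, against 20.0% of all genes), and leaving out 1 library gave 1 to 5 lower. A log2 fold change below 0 was found for 6 of the 8 (75.0%, against 50.8% of all genes), and the median was -0.11. Psma4 stood at 121, 117, 119 and 121 in KO1 to KO4, against 138, 145, 134 and 132 in WT1 to WT4. Every KO library lay below every WT library, at 119 ± 2.1 in KO and 137 ± 5.84 in WT (SD, n = 4 each). The fitted log2 change was -0.20 (SE 0.0472; adjusted p = 0.00802 by limma). Psma7, with 75.5, 67.2, 71.6 and 74.6 in KO1 to KO4, against 82.2, 82.5, 80.7 and 78.9 in WT1 to WT4, did not overlap either. Its log2 fold change was -0.17 (SE 0.0525; adjusted p = 0.0316 by limma), and this call was lost without KO2, KO3, WT1, WT2 or WT3, at adjusted p values of up to 0.0843. A processed pseudogene outside the table, Gm6542, matches 67.2% of the Psma4 transcript at 96.8% identity, so reads of that pair could have been shared.

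Psma6 stood at 143, 133, 145 and 129 in KO1 to KO4, against 162, 161, 154 and 136 in WT1 to WT4. The groups overlapped because WT4 was low, and the log2 fold change of -0.16 (SE 0.0681) had a limma adjusted p of 0.0982. With the replicate number as a block it passed at 0.0335, and without WT4 at 0.0189. Psma1 (-0.12, limma adjusted p = 0.166) and Psma2 (-0.11, 0.202) did not pass, and both did without WT4 (0.0212 and 0.0402) and on the plain per-million scale (0.0227 and 0.0265). Psma5 stood at 74.2, 70.7, 75.7 and 73.5 in KO1 to KO4, against 74, 80.1, 78.3 and 72.5 in WT1 to WT4 (-0.05, limma adjusted p = 0.479). Psma3 stood at 141, 127, 136 and 125 in KO1 to KO4, against 141, 137, 130 and 118 in WT1 to WT4, with a log2 fold change of 0.01 (limma adjusted p = 0.916). The alpha subunit of the testis-type core, Psma8, was low, with 4.24, 4.60, 4.24 and 3.24 in KO1 to KO4, against 3.25, 3.53, 3.33 and 3.02 in WT1 to WT4. Its log2 fold change of 0.24 (SE 0.116) had a limma adjusted p of 0.131, and of 0.0402 without KO4.

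Beyond the cutting subunits, the beta-type genes did not pass the test. Psmb3 stood at 83.6, 74.2, 75.4 and 76.4 in KO1 to KO4, against 73.6, 75.5, 71.8 and 65.2 in WT1 to WT4 (log2 fold change 0.11, limma adjusted p = 0.191). Psmb1 stood at 144, 121, 128 and 140 in KO1 to KO4, against 132, 138, 128 and 119 in WT1 to WT4 (0.04, 0.679). Both genes overlapped between the groups. Psmb2 averaged 59.4 ± 2.9 in KO and 62.3 ± 6.35 in WT (SD, n = 4 each), with a limma adjusted p of 0.567. Psmb4 stood at 107, 90.2, 104 and 95.1 in KO1 to KO4, against 102, 104, 97.8 and 88.4 in WT1 to WT4, with a log2 fold change of 0.01 (limma adjusted p = 0.92).

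**Figure D2:**
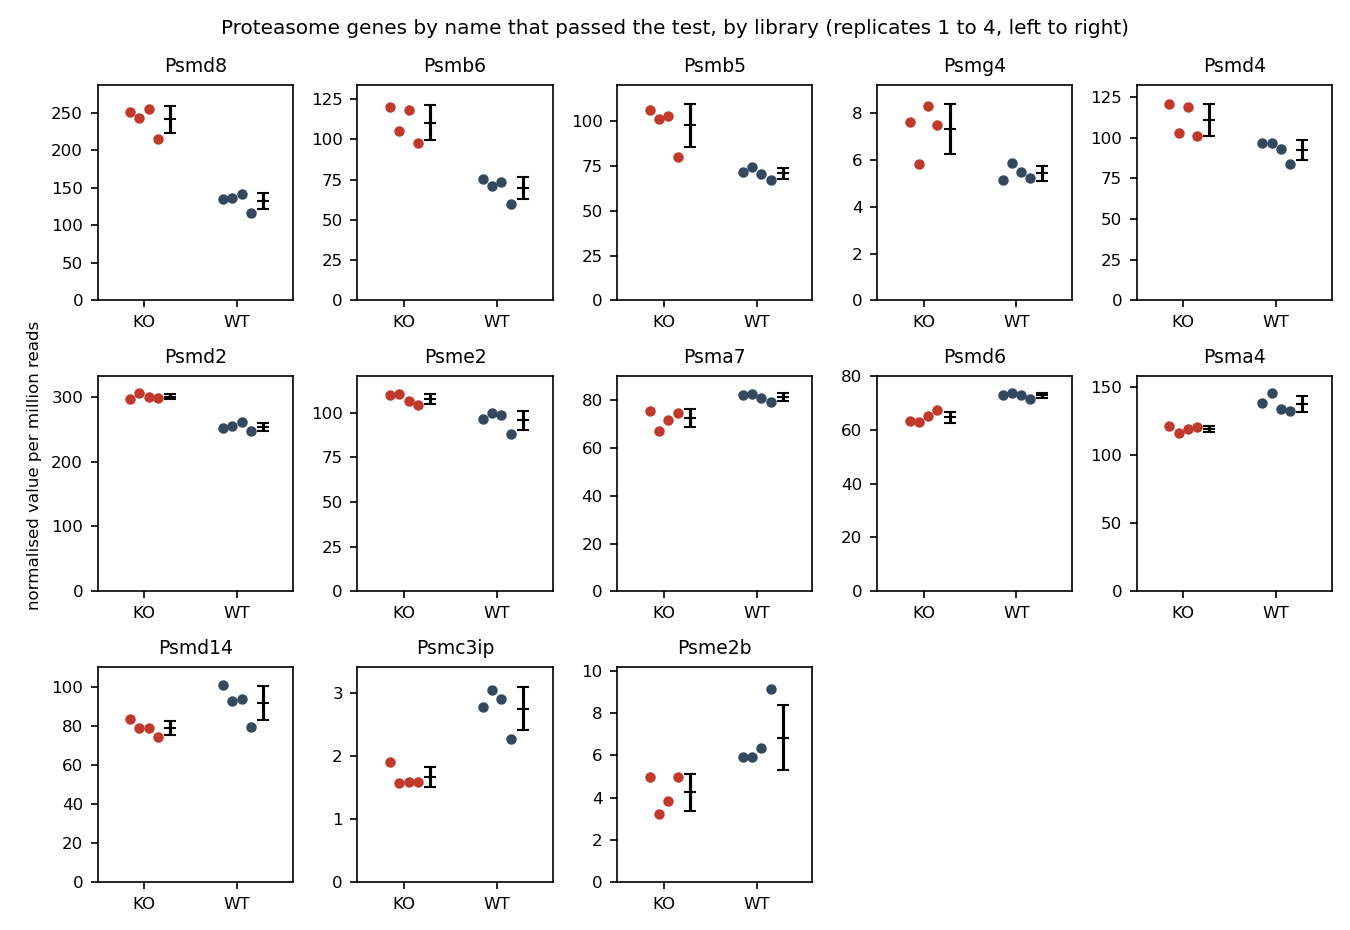
Normalised value (per-million scale) in each KO (red) and WT (dark) library for the 13 genes that passed, with bars for the mean and SD over 4 libraries, ordered from the highest to the lowest log2 fold change. Each axis starts at 0. The groups do not overlap in most panels, and overlap in those of Psmg4 and Psmd14.

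The ATPase ring of the cap pulls the substrate into the core. Of its 6 genes 0 rose and 0 fell by limma, where 38.7% of all genes passed, and log2 fold changes ran between -0.09 and 0.13. An unadjusted limma p under 0.05 was found for 1 of the 6, and for 5733 of all 12163 genes tested. Psmc6 stood at 98.4, 105, 103 and 94.2 in KO1 to KO4, against 98.0, 92.1, 92.4 and 84.1 in WT1 to WT4 (log2 fold change 0.13, limma adjusted p = 0.127). Psmc5 stood at 76.5, 73.3, 78.2 and 74.7 in KO1 to KO4, against 69.8, 72.2, 70.0 and 68.9 in WT1 to WT4. These groups did not overlap, yet the log2 fold change of 0.11 had a limma adjusted p of 0.0975 (0.0492 with median centring). Psmc2 lay lower in every KO library, with 89.6, 95.6, 94.4 and 97.6 in KO1 to KO4, against 100, 102, 100 and 99.8 in WT1 to WT4. Its log2 fold change of -0.09 (limma adjusted p = 0.136) was -0.18 on the plain per-million scale, where it passed at 0.0122. The smallest differences were those of Psmc1, with 84.2, 75.0, 81.5 and 76.2 in KO1 to KO4 against 82.9, 79.0, 81.2 and 71.8 in WT1 to WT4 (log2 fold change 0.01, limma adjusted p = 0.913), and Psmc3, with 110, 100, 104 and 111 in KO1 to KO4 against 100, 105, 107 and 106 in WT1 to WT4 (0.02, 0.766). Psmc4 had a log2 fold change of -0.03 (limma adjusted p = 0.725).

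Of the 11 non-ATPase subunits 3 rose and 2 fell (45.5%, against 38.7% of all genes). Psmd8, a lid subunit that joins last and completes the lid, changed most of all 46 genes. It stood at 252, 244, 255 and 215 in KO1 to KO4, against 135, 136, 142 and 117 in WT1 to WT4. The number 4 library was the lowest of each group, and the groups lay far apart. Psmd8 averaged 241 ± 18.1 in KO and 132 ± 10.9 in WT (SD, n = 4 each), which is 82.2% higher, with a log2 fold change of 0.86 (SE 0.0761; adjusted p = 2.91e-05 by limma). The gene lies on chromosome 7 at 29174188 to 29180701 of GRCm38, on the minus strand.

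Psmd2, the base subunit on which shuttle receptors and the deubiquitinase Usp14 dock, had the tightest values. It stood at 296, 305, 300 and 298 in KO1 to KO4, against 252, 255, 260 and 246 in WT1 to WT4. KO averaged 300.0 ± 3.71 and WT 253 ± 5.82 (SD, n = 4 each), and the log2 fold change was 0.24 (SE 0.041; adjusted p = 0.00132 by limma). A transcribed pseudogene outside the table, Gm5422, matches 92.1% of the Psmd2 transcript at 96.4% identity. Psmd4, a ubiquitin receptor of the cap, stood at 121, 103, 119 and 101 in KO1 to KO4, against 96.6, 96.8, 93.3 and 83.8 in WT1 to WT4. KO libraries again lay above WT libraries, with a log2 fold change of 0.26 (SE 0.076; adjusted p = 0.0241 by limma). This call was lost without KO1 (0.0672), KO3 (0.0709) or WT4 (0.0521), and on the plain per-million scale (log2 fold change 0.17, adjusted p = 0.102).

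Psmd6, a lid subunit, fell in KO. It stood at 63.1, 62.7, 65.1 and 67.1 in KO1 to KO4, against 73.0, 73.5, 72.9 and 71.4 in WT1 to WT4, without overlap. The log2 fold change was -0.17 (SE 0.0465; adjusted p = 0.0161 by limma, and 0.0503 without WT2). Psmd14, the deubiquitinase that strips ubiquitin chains as the substrate enters, stood at 83.3, 79.0, 78.7 and 74.4 in KO1 to KO4, against 101, 92.9, 93.6 and 79.6 in WT1 to WT4. The groups overlapped at WT4, and the log2 fold change of -0.21 (SE 0.0743) passed narrowly, at a limma adjusted p of 0.0471. The call was lost when any library other than WT4 was left out, and with quantile normalisation (0.0598) or median centring (0.067).

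The other 6 non-ATPase subunits did not pass. Psmd1, the large scaffold of the base, stood at 131, 129, 132 and 132 in KO1 to KO4, against 150, 138, 153 and 131 in WT1 to WT4. The log2 fold change was -0.13 (limma adjusted p = 0.111), and without WT4 it was -0.17 (0.0313). Psmd11 stood at 82.7, 83.3, 80.7 and 86.6 in KO1 to KO4, against 79.2, 82.2, 86.0 and 80.9 in WT1 to WT4 (0.02, limma adjusted p = 0.755). Psmd3 stood at 78.8, 70.9, 72.8 and 66.7 in KO1 to KO4, against 75.1, 74.9, 78.6 and 67.5 in WT1 to WT4 (-0.03, 0.728). Neither gene separated the groups. Psmd12 (-0.04, limma adjusted p = 0.504), Psmd7 (-0.07, 0.32) and Psmd13 (-0.09, 0.259) lay slightly below 0, and on the plain per-million scale Psmd7 and Psmd13 passed (0.0404 and 0.0349).

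The 3 chaperones that build the cap, Psmd5, Psmd9 and Psmd10, did not pass. Psmd5, which holds ATPases before they join the core, stood at 32.7, 33.9, 28.4 and 38.0 in KO1 to KO4, against 34.5, 38.4, 39.3 and 42.1 in WT1 to WT4. Each KO library lay below the WT library of the same number. The log2 fold change was -0.21 (SE 0.0939; adjusted p = 0.103 by limma), and the adjusted p was 0.0421 with the replicate block and 0.0342 without KO4. Psmd9 stood at 22.2, 18.8, 17.7 and 18.4 in KO1 to KO4, against 23.9, 20.8, 21.1 and 18.7 in WT1 to WT4 (-0.13, 0.331). Psmd10, also known as the oncoprotein gankyrin, stood at 40.7, 40.8, 41.3 and 44.2 in KO1 to KO4, against 40.2, 43.0, 43.3 and 43.3 in WT1 to WT4 (-0.02, limma adjusted p = 0.774).

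Among the chaperones of the core, which pair up to build the alpha ring, 1 of 4 passed (25.0%, against 38.7% of all genes). Psmg4 stood at 7.63, 5.83, 8.31 and 7.51 in KO1 to KO4, against 5.15, 5.87, 5.47 and 5.25 in WT1 to WT4. KO2 lay within the WT range and the other 3 KO libraries above it. The log2 fold change was 0.36 (SE 0.111; adjusted p = 0.0274 by limma). The call was lost without KO1, KO3, KO4, WT1, WT3 or WT4 (adjusted p of 0.0511 to 0.0799), without both number 4 libraries (0.0832) and on the plain per-million scale (0.065). Psmg1 stood at 13.1, 11.7, 14.1 and 14.2 in KO1 to KO4, against 10.6, 10.1, 11.7 and 12.0 in WT1 to WT4. Its log2 fold change of 0.24 (SE 0.0896) had a limma adjusted p of 0.0616, of 0.0277 with the replicate block and of 0.0485 without WT4. Psmg2 stood at 15.8, 17.7, 17.9 and 17.6 in KO1 to KO4, against 14, 16.6, 17.9 and 16.4 in WT1 to WT4 (0.09, limma adjusted p = 0.455). Psmg3, the partner of Psmg4, stood at 9.01, 7.80, 7.29 and 8.39 in KO1 to KO4, against 7.99, 9.78, 9.20 and 9.35 in WT1 to WT4 (-0.14, 0.265).

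Activators open the core from its ends. Psme1 and Psme2 form the interferon-inducible cap. Psme2 stood at 110, 111, 106 and 104 in KO1 to KO4, against 96.5, 99.6, 98.8 and 87.9 in WT1 to WT4, without overlap, and its log2 fold change was 0.17 (SE 0.054; adjusted p = 0.0315 by limma). Psme2b, a near copy of Psme2, fell, with 4.97, 3.21, 3.84 and 4.99 in KO1 to KO4 against 5.94, 5.94, 6.34 and 9.15 in WT1 to WT4. The log2 difference between genotypes was -0.57 (SE 0.164; adjusted p = 0.0199 by limma). The 2 transcripts are 99.4% identical over 82.5% of Psme2, so that the split of reads between them, and with it each value, is uncertain. Summed, they came to 112 ± 2.6 in KO and 103 ± 3.93 in WT (SD, n = 4 each), a log2 difference of 0.13. The Psme2 call was lost on the plain per-million scale (0.08, limma adjusted p = 0.271) and when KO1, KO2, KO3, WT1 or WT4 was left out, and the Psme2b call without KO2 (0.0541) or KO3 (0.0546).

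Psme1, the other subunit of that cap, stood at 124, 109, 123 and 125 in KO1 to KO4, against 116, 125, 117 and 114 in WT1 to WT4 (0.02, limma adjusted p = 0.777). Psme3, the nuclear activator, stood at 116, 114, 122 and 111 in KO1 to KO4, against 117, 117, 119 and 125 in WT1 to WT4 (-0.04, 0.529). Psme4, the large activator linked to the degradation of histones, stood at 114, 123, 117 and 110 in KO1 to KO4, against 127, 112, 113 and 104 in WT1 to WT4 (0.03, 0.795). These 3 genes did not separate the groups. The inhibitor Psmf1 stood at 28, 31, 31.1 and 25.8 in KO1 to KO4, against 32.6, 28.8, 32.1 and 25.7 in WT1 to WT4, with a log2 fold change of -0.04 (SE 0.0935; adjusted p = 0.789 by limma).

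Psmc3ip stood at 1.90, 1.58, 1.6 and 1.59 in KO1 to KO4, against 2.78, 3.05, 2.91 and 2.28 in WT1 to WT4. It was low in every library and lower in each KO library, with a log2 fold change of -0.49 (SE 0.118; adjusted p = 0.0089 by limma). Its exons overlap those of Mlx on the opposite strand by 385 bases.

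Summed over all 46 genes, the value was 3968 ± 107 in KO and 3811 ± 154 in WT, which is 4.13% higher, but the share of reads was 0.384% ± 0.00865 in KO and 0.393% ± 0.0167 in WT (SD, n = 4 each). The groups overlapped on both scales, and the direction of the difference between the means depended on the scaling. The alpha subunits summed to 812 ± 27.2 in KO and 879 ± 52.4 in WT, a change of -7.64% with overlap (-13.3% as a share of reads, without overlap). The beta subunits summed to 696 ± 38.6 in KO and 612 ± 36 in WT, a change of 13.7% (6.69% as a share of reads, where the groups overlapped). Without Psmb5 and Psmb6 the beta sum was 488 ± 24.8 in KO and 471 ± 27.2 in WT. The ATPases summed to 529 ± 6.43 in KO and 521 ± 13.4 in WT, a change of 1.63%, and of -4.60% as a share of reads, with overlap in both. The non-ATPase subunits summed to 1296 ± 33.7 in KO and 1168 ± 47.8 in WT, a change of 11.0% (4.17% as a share of reads, where the groups overlapped). Without Psmd8 they summed to 1054 ± 18.8 in KO and 1035 ± 36.9 in WT. Psmb5, Psmb6 and Psmd8 were left out as the genes that rose most in their classes, so the differences had to shrink. What remained in the deposited scaling was 3.54% for the beta and 1.87% for the non-ATPase class. Psmd2 and Psmd4, which also rose, were kept in the latter.

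**Figure D3:**
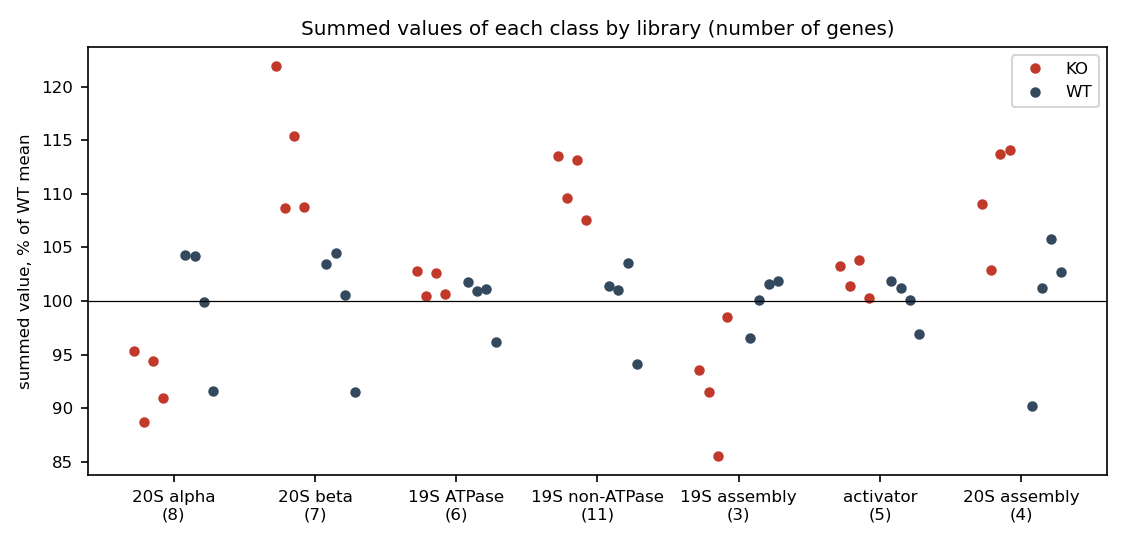
Summed value of each class in each KO (red) and WT (dark) library, as a percentage of the mean of the 4 WT libraries in the deposited scaling; numbers in parentheses are genes per class. The axis does not start at 0. KO libraries lie above WT libraries for the beta and non-ATPase classes, and the alpha class is low in KO1 to KO4 and in WT4.

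The immunoproteasome subunits gave a scale for the cutting subunits within each library, which does not depend on the scaling between libraries. Of the 3, Psmb10 fell, with 54.9, 48.0, 54.5 and 58.2 in KO1 to KO4 against 60.0, 65.3, 61.2 and 64.5 in WT1 to WT4 (log2 fold change -0.22, SE 0.067; adjusted p = 0.0278 by limma). The call was lost without KO2, KO3, WT2 or WT4 (0.0556 to 0.079). Psmb8 stood at 78.0, 73.3, 73.2 and 80.7 in KO1 to KO4, against 79.7, 84.7, 78.3 and 81.0 in WT1 to WT4 (-0.08, limma adjusted p = 0.243, and 0.0248 on the plain per-million scale). Psmb9 stood at 30.9, 26.8, 26.1 and 28.7 in KO1 to KO4, against 35.2, 34.0, 29.4 and 26.8 in WT1 to WT4 (-0.15, 0.264).

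The log2 ratio of Psmb6 to Psmb9, the subunit that replaces it, was 1.96, 1.97, 2.18 and 1.77 in KO1 to KO4, against 1.10, 1.06, 1.32 and 1.17 in WT1 to WT4. The mean difference was 0.81, a 1.75-fold shift towards the standard subunit. The ratio of Psmb5 to Psmb8 was 0.45, 0.46, 0.49 and -0.01 in KO1 to KO4, against -0.16, -0.18, -0.15 and -0.27 in WT1 to WT4, a difference of 0.54. The ratio of Psmb7 to Psmb10 was 1.14, 1.29, 1.14 and 1 in KO1 to KO4, against 0.89, 0.76, 0.84 and 0.73 in WT1 to WT4, a difference of 0.33. In each pair the KO libraries lay above the WT libraries, with KO4 nearest to them. A ratio shows that the members of a pair changed unequally, not which of them changed, and since transcript lengths differ its level says nothing of the ratio of subunits.

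**Figure D4:**
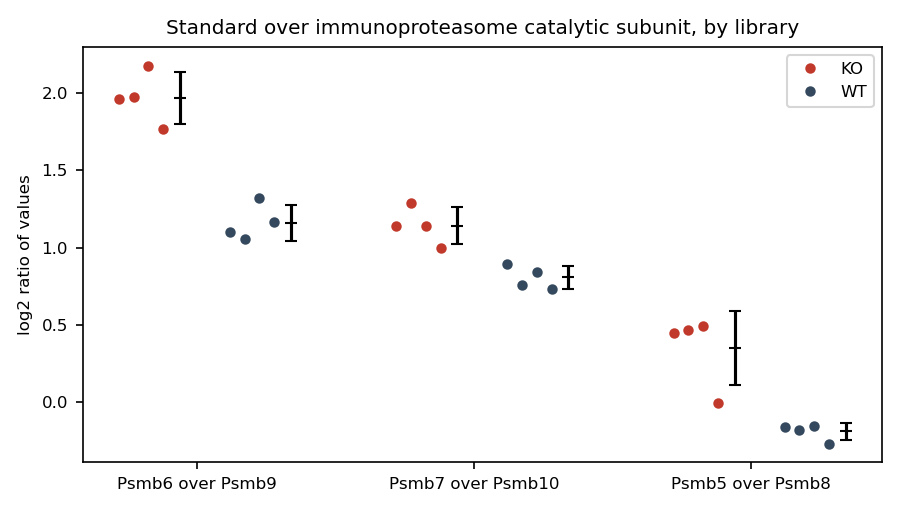
Log2 ratio of each standard cutting subunit to its immunoproteasome counterpart in each KO (red) and WT (dark) library, with bars for the mean and SD over 4 libraries. In all 3 pairs the KO points lie above the WT points, by 0.81 for Psmb6 over Psmb9, 0.33 for Psmb7 over Psmb10 and 0.54 for Psmb5 over Psmb8.

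Of 38 related genes tested outside the Psm names, 12 rose and 6 fell (47.4%, against 38.7% of all genes), while the plain per-million scale gave 8 higher and 12 lower. Among 7 that control the transcription of proteasome genes, 4 rose and 1 fell (71.4%, against 38.7% of all genes). The related genes were chosen with earlier results of these data known, so their shares are a description only. Nfe2l1 stood at 321, 363, 340 and 268 in KO1 to KO4, against 180, 185, 182 and 196 in WT1 to WT4. KO4 was the lowest KO library and WT4 the highest WT library, and the groups were still apart, at 323 ± 40.6 in KO and 186 ± 7.2 in WT (SD, n = 4 each). The log2 fold change was 0.79 (SE 0.0865; adjusted p = 9.69e-05 by limma). Its relative Nfe2l2, the factor of the response to oxidants, did not separate the groups, with 189, 209, 191 and 240 in KO1 to KO4 against 189, 195, 191 and 236 in WT1 to WT4 (0.03, limma adjusted p = 0.824). The number 4 library was the highest in each group.

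The small Maf proteins are the DNA-binding partners of both factors. Mafg stood at 91.7, 108, 103 and 100 in KO1 to KO4, against 50.7, 49.1, 57.0 and 64.5 in WT1 to WT4, with a log2 fold change of 0.86 (SE 0.0902; adjusted p = 7.44e-05 by limma). Mafk (0.37, 0.0147) and Maff (0.51, 0.0206) also rose, the call of Maff being lost without KO1 (0.0586) or KO3 (0.061). Of the enzymes that make the Nfe2l1 protein active, Ngly1 fell and Ddi2 did not pass. Ngly1, which removes its sugar chains, stood at 53.2, 52.9, 59.2 and 56.6 in KO1 to KO4, against 69.5, 65.4, 59.8 and 68.7 in WT1 to WT4 (-0.24, SE 0.0653; adjusted p = 0.0155 by limma). Ddi2, the protease that cleaves it, averaged 203 ± 18.7 in KO and 214 ± 18 in WT (SD, n = 4 each; -0.07, limma adjusted p = 0.519).

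**Figure D5:**
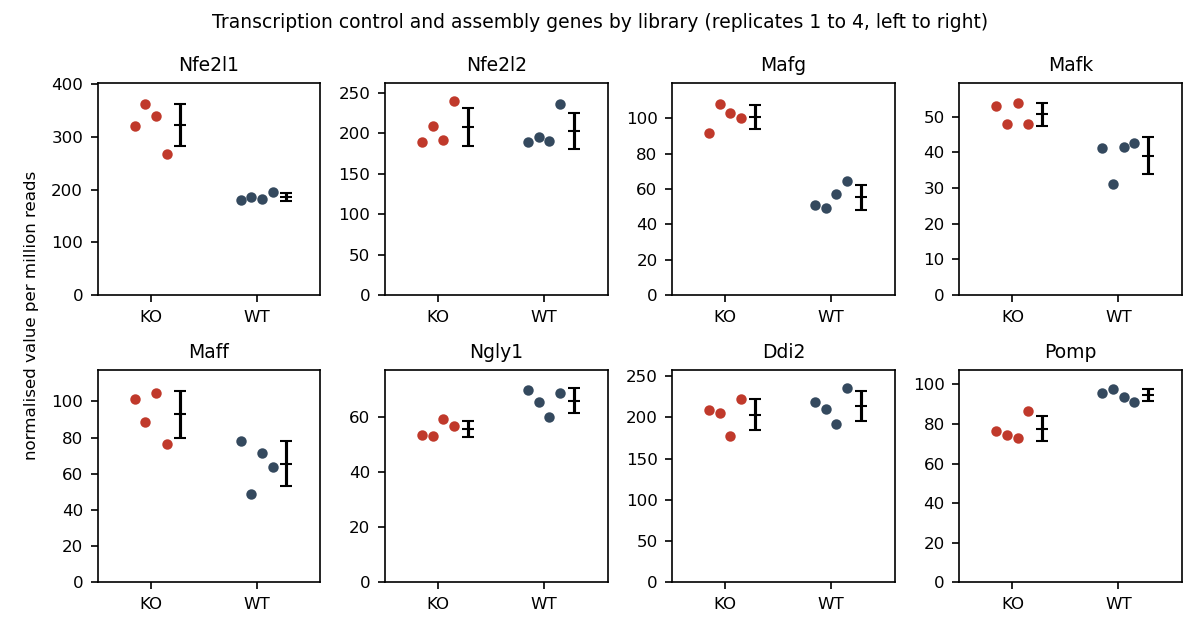
Normalised value (per-million scale) in each KO (red) and WT (dark) library for Nfe2l1, Nfe2l2, the small Maf genes, Ngly1, Ddi2 and the assembly factor Pomp, with bars for the mean and SD over 4 libraries; each axis starts at 0. Nfe2l1 and Mafg lie far higher in KO, Nfe2l2 and Ddi2 overlap, and Ngly1 and Pomp lie lower in KO.

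Of 11 further subunits and proteasome-bound factors, 3 rose and 1 fell (36.4%, against 38.7% of all genes). Zfand5, which stimulates the 26S proteasome, averaged 188 ± 17.0 in KO and 139 ± 10.1 in WT (log2 fold change 0.44, limma adjusted p = 0.00159). Txnl1, a thioredoxin-like protein bound to the cap, averaged 92.3 ± 2.05 in KO and 77.2 ± 3.71 in WT (0.26, 0.00332), and Ecpas, which holds the core and the cap together, 156 ± 12.1 in KO and 133 ± 6.12 in WT (SD, n = 4 each; 0.23, 0.0157, and 0.0959 on the plain per-million scale). Pomp, the chaperone that drives the joining of core intermediates, fell, with 76.5, 74.3, 72.9 and 86.6 in KO1 to KO4 against 95.9, 97.9, 93.5 and 90.9 in WT1 to WT4. The fitted log2 change was -0.28 (SE 0.0628; adjusted p = 0.00563 by limma). Psmg4 and Pomp, both of core assembly, thus differed in direction, but the Psmg4 call was lost without KO1, KO3, KO4, WT1, WT3 or WT4. Of the other core chaperones, none of which passed, Psmg1 (0.24) and Psmg2 (0.09) lay above 0 and Psmg3 (-0.14) below. The deubiquitinases of the cap, Usp14 (0.13, limma adjusted p = 0.0642) and Uchl5 (-0.14, 0.126), and the ubiquitin receptor Adrm1 (0.08, 0.226) did not pass. Usp14, whose groups did not overlap, passed as higher with quantile normalisation (limma adjusted p = 0.034), median centring (0.0456) and library quality weights (0.0269). Uchl5 passed as lower without both number 4 libraries (-0.18, limma adjusted p = 0.0346), without KO4 (0.0243), with library quality weights (0.0335) and on the plain per-million scale (-0.23, 0.021).

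Of 6 genes that supply or activate ubiquitin, 2 rose and 1 fell (50.0%, against 38.7% of all genes). Rps27a, which encodes ubiquitin fused to a ribosomal protein, averaged 721 ± 71.5 in KO and 470 ± 34.9 in WT (SD, n = 4 each; log2 fold change 0.62, limma adjusted p = 0.000249), and a change of such a fusion cannot be assigned to ubiquitin supply. The polyubiquitin gene Ubb (-0.16, limma adjusted p = 0.148) did not pass. Uba1, the main activating enzyme, fell (-0.14, limma adjusted p = 0.0397), a call that was lost without both number 4 libraries (0.0786) and without any library other than KO2.

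Of 11 receptors, shuttles and members of the segregase that delivers substrates, 3 rose and 2 fell (45.5%, against 38.7% of all genes). Vcp, the segregase itself, averaged 384 ± 12.6 in KO and 461 ± 17.2 in WT (log2 fold change -0.26, limma adjusted p = 0.00196), and the shuttle Ubqln2 59.5 ± 4.47 in KO and 70.2 ± 2.12 in WT (SD, n = 4 each; -0.24, 0.0129). The shuttle Rad23b (0.22, limma adjusted p = 0.00636) and the Vcp cofactor Faf1 (0.20, 0.039) passed as higher. The call of Faf1 was lost without any 1 library other than KO1 (0.0507 to 0.105), without both number 4 libraries (0.12) and with no variance trend (0.0527). Rad23b and Faf1 did not pass on the plain per-million scale (0.067 and 0.217), while Vcp, Ubqln2, Pomp, Nfe2l1, Mafg, Mafk, Ngly1, Zfand5 and Txnl1 passed in every alternative at an adjusted p under 0.05.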

How the data were processed

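Polyadenylated RNA of 8 libraries was sequenced, 4 KO and 4 WT, grouped and numbered by the sample titles. Per the submitters' processing notes, the tools were RSEM 1.3.1, CASAVA 1.8.2, cutadapt 1.7.1 and limma, with build GRCm38. Not given in the sources used here are the aligner, the annotation release and the strand setting. Per the labels' protocols, the library kit keeps strand. The table deposited by the authors gives each gene a normalised signal in each library. The spacing of these values is that of a whole read number plus 0.5 over a scaled library size on a per-million scale, and 100% of values came out whole at a tolerance of 0.01. These reads served for depth, shares and voom weights. A check for an edgeR test did not accept them as counts, since low values were too few, and the read numbers and shares given here carry that doubt. The table lists no gene below a low level, so summed reads are a lower limit of depth.

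Values were tested as log2(value + 1) with limma 3.58.1 in R 4.3.3 over the 12163 genes that reached 1 in 4 or more libraries, which left out 204 rows (variances moderated with a trend, two-sided; calls at a p under 0.05 after Benjamini-Hochberg adjustment). Fold changes are on this scale, which understates those of low genes. Figures and sums used Python 3.11.15. The limma fit was tested on simulated counts, which held no effect of the replicate number. The proteasome genes and the related and marker lists were chosen with earlier results of these data known. Some related genes are not reported here. By the rule for named genes, every proteasome gene is named, per-library values are given for up to 3 largest and up to 2 smallest changes in each class, and for Tfam. Per-library values of further genes, Nek6, Mlx, Cxcr2, S100a9 and the named alveolar macrophage markers were added after values were seen. Near copies were sought among GENCODE M21 transcripts at 95% identity over 50% of the transcript: 9 of the 46 genes have a copy, and 3 a copy with its own row.

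The replicate numbers are shared by the groups. After subtraction of group means, KO and WT libraries of equal number correlated at 0.36, 0.29, 0.39 and 0.43 and those of unequal number at -0.37 to 0.092, and each of the 8 libraries was most like its namesake. What a number stands for is not in the labels, so this pairing is read from the data. The blocked fit is an alternative to the unblocked one. Other alternatives were the filter, the pseudocount, the scaling, the variance model, voom weights, a threshold of 0.01 and leaving out libraries.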

Additional observations from a re-analysis of the deposited data

Results flagged for a closer look

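Among 142 groups of 4 libraries over 71 genes, 11 held a library far from the other 3 by Dixon's 95% limit. Chance gives about 1 such group in 20, and no explanation was tested.

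Among proteasome genes, Psma1 was 143 in KO2, against 153 to 154 in the other KO libraries. Psme1 was 109 in KO2, against 123 to 125, and Psmg2 was 15.8 in KO1, against 17.6 to 17.9. Psmc3ip was 1.90 in KO1, against 1.58 to 1.6. In WT, Psmd10 was 40.2 in WT1, against 43.0 to 43.3 in the others, and Psme2b was 9.15 in WT4, against 5.94 to 6.34. Of these 6, Psme2b and Psmc3ip passed the test between genotypes, and both passed without the library concerned.

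Among related genes, Uba1 was 256 in KO2, against 233 to 237 in the other KO libraries, and Ubqln2 was 66.2 in KO4, against 57.2 to 57.4. Mafk was 31.2 in WT2, against 41.2 to 42.5 in the other WT libraries. Nfe2l2 was 236 in WT4, against 189 to 195, and Usp14 was 127 in WT3, against 133 to 134.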

How the results depend on the processing

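Counts of proteasome genes were 7 higher and 6 lower in KO with the values as deposited. At an adjusted p of 0.01 they were 4 and 2, without both number 4 libraries 6 and 10, and on the plain per-million scale 4 and 14. Leaving out 1 library gave 4 to 7 higher and 3 to 10 lower. The replicate block gave 8 higher and 8 lower, adding Psma6, Psmd5 and Psmg1 and losing none, and it is read from the data. Library quality weights gave 9 and 9. Related genes were 12 higher and 6 lower, 7 and 2 at 0.01, and 8 and 12 on the plain per-million scale. Leaving out 1 library gave 9 to 11 higher and 4 to 7 lower. Over all genes, 2279 were higher and 2429 lower with the values as deposited, and 1513 and 1543 at 0.01. The replicate block raised the counts over all genes to 2730 and 2952, and library quality weights to 2685 and 2938. Without both number 4 libraries they were 2349 and 2531, and on the plain per-million scale 1708 and 3481. Leaving out 1 library gave 1850 to 2252 higher and 1947 to 2447 lower over all genes. Tfam ran between -2.62 and -2.47 when 1 library was left out. The causes were not tested. An edgeR test of the recovered reads was planned and not run, since the low values were too few to accept the reads as counts.

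Values that turned their sign were near 0 and did not pass in any alternative. On the plain per-million scale the log2 fold changes were -0.0795 for Psma3, -0.0486 for Psmb1, -0.0788 for Psmb4, -0.0794 for Psmc1, -0.068 for Psmc3, -0.0678 for Psmd11, -0.0661 for Psme1, -0.0642 for Psme4, -0.0591 for Nfe2l2 and -0.00525 for Adrm1. Without both number 4 libraries they were -0.0123 for Psma3, -0.0225 for Psmb1, -0.0195 for Psmb4, -0.0143 for Psmc1, -0.00287 for Psmd11 and -0.0121 for Psme1. With quality weights they were -0.0079 for Psma3, -0.0164 for Psmb1, -0.0124 for Psmb4 and -0.00427 for Psme1. Leaving out 1 library gave -0.0387 to 0.047 for Psma3, -0.0376 to 0.0549 for Psmb4, -0.0323 to 0.0361 for Psmc1, -0.0773 to 0.00323 for Psmd3, -0.0174 to 0.0798 for Psme4, -0.104 to 0.0161 for Psmf1 and -0.0403 to 0.106 for Nfe2l2.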

Other observations

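The order of the libraries within each genotype was shared by many proteasome genes. WT4 was the lowest WT library for 35 of the 46 genes and the highest for 6, against 36.4% and 32.7% of all genes tested. In KO, KO1 was the highest library for 21 of the 46 genes (26.2% of all genes tested), and KO2 was the lowest for 21 (24.7%). Between libraries of the same number, 11 of the 46 genes were higher in KO in 4 of 4 pairs (23.9%, against 28% of all genes tested) and 13 were lower in 4 of 4 (28.3%, against 30.7%).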
